A study of Mus musculus with 41 samples.

Results

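The kappa light chain variable (V) segments were taken as every gene of the deposited matrix whose symbol begins with Igkv, which gave 112 segments of 19221 genes. All 112 had at least 4 unique molecular identifiers (UMIs, each marking 1 captured RNA molecule), and Igkv3-7 had the most with 9121. The Igkv segments together held 83484 UMIs over 58067 cells, of which 27344 came from mice with food allergy and 30723 from control mice. The cells were immune cells of the gut of 10-week-old female BALB/cJ mice, profiled with droplet libraries that read the 3′ end of each RNA. The food allergy group carries that label only, with no agent or dose given in the labels, and the control group is labelled wild type; titles of Peyer's patch libraries carry WT in both conditions, so the labels give no difference in genotype. Lamina propria cells came from a nonTB sort (3 food allergy and 3 control libraries) and from an IgDLow sort (1 food allergy and 1 control library). Peyer's patch cells came from 9 food allergy and 10 control libraries. The labels list 10 of food allergy, and the one of position D on run date 1 is not analysed here, so the food allergy sum of that date holds positions I and J and the control sum positions D, I and J. The libraries fall on 7 run dates, numbered here in order: dates 1 to 5 hold Peyer's patches, date 6 the nonTB libraries 1 and 2 of each condition, and date 7 the nonTB library 3 of each condition and both IgDLow libraries. The labels do not say how many animals stand behind a library or whether libraries of a date share animals, so the p-values below speak only of how much these libraries vary, and that variation may be partly technical.

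A kappa light chain gene is made when a developing B cell joins 1 V segment to 1 of a few short J segments, with the cut ends trimmed at the junction, and the joined V-J exon is then spliced to the constant exon Igkc. Because a B cell and its descendants normally keep 1 productive light chain, the cells of a clone share a V segment. Cells with the same V segment need not belong to the same clone. Gut plasma cells mostly secrete IgA held together by the joining protein Jchain; they arise in large part from B cells activated in Peyer's patches and come to reside in the lamina propria. The lambda light chain loci (Iglc and Iglv genes) are the alternative, used by a minority of mouse B cells.

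The germline sequences of the segments that changed most clearly in the lamina propria, or that were used most, are shown so that they can be told apart. They are from GENCODE release M21 on GRCm38 (mm10), the C57BL/6J reference, and allelic differences in BALB/cJ are not represented. Each is printed 5′ to 3′ on the coding strand and ends at the last base of the V exon. The capitals run from the codon of the last conserved cysteine to the end of the V exon, the part of the germline segment that enters the third complementarity-determining region (CDR3), the loop that contacts antigen most directly. Igkv12-44 is given in full, as chr6:69814631-69814928 on the minus strand, without its leader exon.
Igkv12-44: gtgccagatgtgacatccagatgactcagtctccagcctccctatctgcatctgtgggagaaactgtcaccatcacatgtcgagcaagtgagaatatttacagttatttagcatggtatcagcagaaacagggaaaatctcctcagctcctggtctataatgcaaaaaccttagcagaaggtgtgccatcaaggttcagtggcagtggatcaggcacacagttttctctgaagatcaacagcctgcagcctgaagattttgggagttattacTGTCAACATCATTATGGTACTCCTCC
The last 120 bases are given for the others: Igkv4-61 (chr6:69416893-69417012, minus strand), Igkv6-32 (chr6:70074024-70074143, minus strand) and Igkv8-24 (chr6:70216858-70216977, minus strand), and, for the abundant family 3, Igkv3-7 (chr6:70607917-70608036), Igkv3-1 (chr6:70704058-70704177) and Igkv3-2 (chr6:70698948-70699067), all on the plus strand.
Igkv4-61: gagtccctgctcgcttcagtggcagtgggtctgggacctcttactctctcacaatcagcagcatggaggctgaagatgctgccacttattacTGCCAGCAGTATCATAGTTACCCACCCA
Igkv6-32: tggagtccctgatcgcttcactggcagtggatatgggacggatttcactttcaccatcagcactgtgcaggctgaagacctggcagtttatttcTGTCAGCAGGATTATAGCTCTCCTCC
Igkv8-24: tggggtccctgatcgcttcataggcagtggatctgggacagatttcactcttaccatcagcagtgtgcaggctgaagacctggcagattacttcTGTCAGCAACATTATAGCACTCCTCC
Igkv3-7: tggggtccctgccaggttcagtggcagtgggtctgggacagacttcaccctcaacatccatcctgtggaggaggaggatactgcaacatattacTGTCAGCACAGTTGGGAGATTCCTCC
Igkv3-1: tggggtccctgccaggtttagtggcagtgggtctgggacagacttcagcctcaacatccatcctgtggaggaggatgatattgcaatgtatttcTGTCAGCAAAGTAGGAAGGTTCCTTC
Igkv3-2: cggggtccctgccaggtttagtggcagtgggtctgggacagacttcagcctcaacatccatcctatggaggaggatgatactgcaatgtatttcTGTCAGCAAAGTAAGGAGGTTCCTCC
Igkv3-1 and Igkv3-2, which lie next to each other, are identical at 92.9% of 310 bases, and Igkv3-1 and Igkv3-7 at 85.2%. These pairs share runs of up to 63 and 42 bases. Igkv3-12, the segment most like Igkv3-7, is identical to it at 96.8% of bases, with a shared run of 97 bases. UMIs of close relatives may not be parted cleanly in the deposited counts.

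Usage was read in cells with at least 20 Jchain UMIs, called Jchain-high cells, of which there were 5938: 5246 in the lamina propria and 692 in Peyer's patches. Total UMIs per library ran from 8905411 to 16500144 in the lamina propria and from 1115608 to 18742802 in Peyer's patches. Jchain-high cells were 10.2% of all cells and held 61423 of the Igkv UMIs (73.6%). In the nonTB lamina propria sort 84.4% of Jchain-high cells had a UMI of Sdc1, the plasma cell surface proteoglycan, 98.4% had one of Mzb1, and 3.33% had one of Ms4a1, the B cell surface protein CD20. Sdc1 and Ms4a1 were reversed in Peyer's patch cells of run dates 1 to 3, at 12% and 89.1% of Jchain-high cells. Those of dates 4 and 5 had Sdc1 in 72.3% and Ms4a1 in 24.9%. Other plasma cell markers were mixed in dates 1 to 3. Mzb1 was in 99.0%, Txndc5 in 81.4% and Slamf7 in 52.0% (39.7% in the nonTB sort), but Tnfrsf17 in 7.57% (76.3%). The B cell gene Cd79a was in 96.5% of these cells and 94.3% of nonTB cells. By Sdc1 and Ms4a1 the Jchain-high set was mostly plasma cells in the lamina propria and mostly Ms4a1-bearing B cells in the earlier Peyer's patch dates. In both sets of dates markers of other cell types were also seen, although most cells of the later dates had Sdc1. T cell markers were more frequent in dates 1 to 3 than in dates 4 and 5. Cd3d was in 22.9% and 2.26%, Trbc2 in 35.1% and 11.9% and Lck in 58.4% and 14.7%. Only Cd28 of that list went the other way (10.5% and 58.2%). Markers of other types were frequent in dates 4 and 5. Siglech and Klk1, of plasmacytoid dendritic cells, had a UMI in 3.92% and 3.90% of nonTB lamina propria cells and in 28.8% and 22.6% of Peyer's patch cells of dates 4 and 5. Bst2 (65.9% and 67.2%) and Ly6d (43.1% and 44.6%), of the same list, hardly differed. Il7r, of innate lymphoid cells, was seen in 3.58% and 24.3% of the same sets. The mast cell markers were mixed. Mcpt1 (13.6% and 38.4%), Mcpt2 (8.10% and 25.4%) and Kit (3.13% and 12.4%) were higher in dates 4 and 5. Cpa3 (5.94% and 5.08%), Cma1 (3.24% and 1.69%) and Tpsb2 (1.17% and 0.565%) were lower, and Fcer1a (2.45% and 2.82%) hardly differed. The part of these markers in the Peyer's patch results was not tested.

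Each Jchain-high cell with at least 3 Igkv UMIs and no tie for the highest was assigned its dominant segment. Of 3719 cells with enough UMIs, 879 were tied and 2840 received a dominant segment, and 89 of the 112 segments were dominant in at least 1 cell. The counts behind each assignment were small. Igkv made up 0.146%, 0.162% and 0.280% of kappa UMIs (Igkv plus Igkc) in the nonTB food allergy libraries, against 0.134%, 0.125% and 0.171% in the nonTB control libraries, and the median Jchain-high cell of the nonTB sort had 5 Igkv UMIs. Lamina propria cells with 3 to 5 Igkv UMIs gave a median of 40% of them to the leading segment, and 45.0% of those cells were tied. Cells with at least 21 Igkv UMIs gave 65.5%.

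Igkv UMIs were also found in cells that should lack them. T cells (at least 2 UMIs of Cd3d, Cd3e and Cd3g together, under 20 of Jchain and none of Ms4a1 or Cd79a), which do not make kappa chains, had a mean of 0.222 to 0.829 Igkv UMIs per cell in the nonTB food allergy libraries, against 0.256 to 0.808 in the nonTB control libraries. The nonTB Jchain-high cells averaged 6.03 to 11.6 Igkv UMIs in food allergy and 4.44 to 7.21 in control, at median depths of 9967 to 11631.5 and 8908.5 to 11942 UMIs per cell. The T cells were shallower, with median depths of 1305.5 to 1979 UMIs in food allergy and 1452 to 2390 in control. The levels across libraries are shown in the plot of Igkv content.

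**Figure D1:**
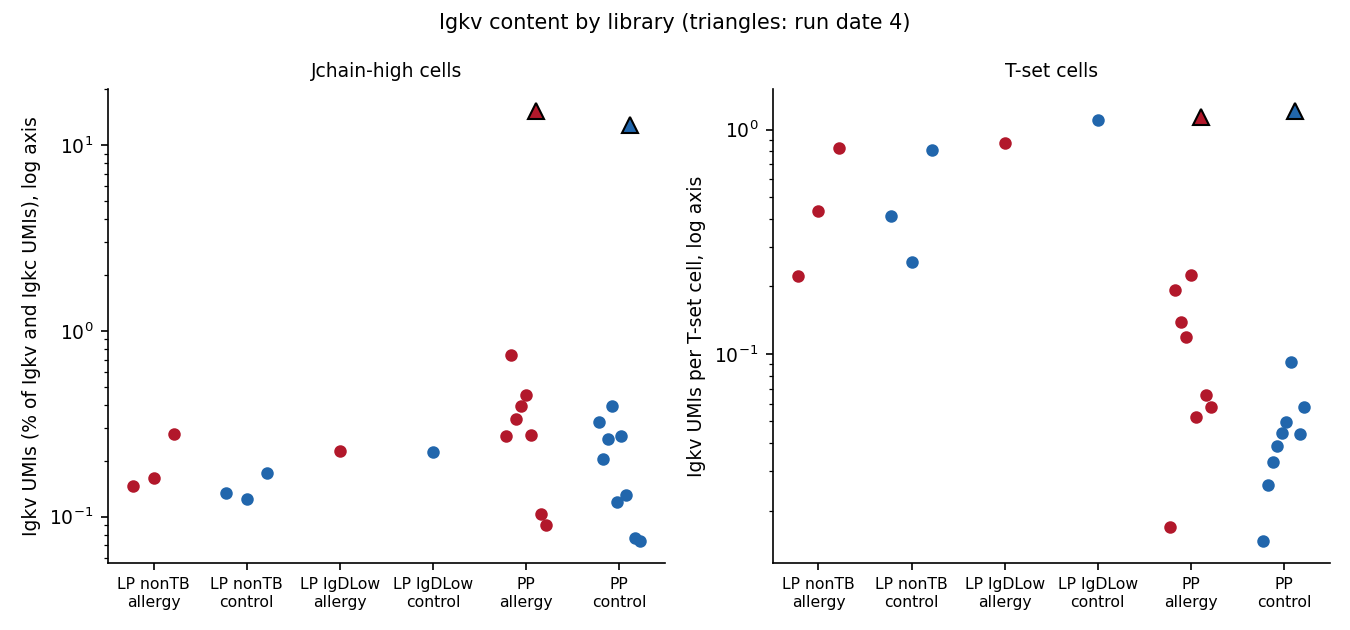
Igkv content of each library on log axes: left, Igkv UMIs as a percent of Igkv and Igkc UMIs in Jchain-high cells; right, Igkv UMIs per T-set cell. Points are libraries (red food allergy, blue control) and triangles mark the 2 Peyer's patch libraries of run date 4, at 15.4% and 12.9% of kappa UMIs, far above the other Peyer's patch libraries.

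The 2 Peyer's patch libraries of run date 4 stand apart. Igkv made up 15.4% of kappa UMIs in its food allergy library and 12.9% in its control library, while the other Peyer's patch libraries lay between 0.0738% and 0.744%. Of 68 Jchain-high cells in the series with at least 50 Igkv UMIs, 25 came from run date 4, and the highest held 1794. The 2 libraries shared 64 cell barcodes, 15 of which were Jchain-high in both, and 7 of 7 that had a dominant segment in both had the same one. These 64 were 3.13% of the smaller library. Peyer's patch pairs of run date 2 shared up to 50 barcodes and up to 7.69% of the smaller library, and lamina propria pairs of a date shared 7 to 16 barcodes, so the sharing itself was not particular to date 4. Over all library pairs of the other dates, 1 shared barcode had a dominant segment in both libraries, and the segments differed. Results on Peyer's patches are therefore also given without run date 4.

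In the lamina propria a few segments carried much of the repertoire. The 5 most frequent segments covered 31.9% to 35.2% of the dominant cells in the nonTB food allergy libraries, and 32.1% to 46.8% in the nonTB control libraries. Igkv3-1, the segment nearest to Igkc, was dominant in 5.60 ± 1.65% of food allergy cells and 10.1 ± 4.23% of control cells (SD, n = 3 each). By cells its groups overlapped, while by share of Igkv UMIs every food allergy library lay below every control library. Igkv3-7 was dominant in 9.15%, 9.09% and 9.29% of cells in the food allergy libraries, against 0%, 1.28% and 10.5% in the control libraries; the 0 of 212 cells allows a share of up to 1.42%. The food allergy libraries were nearly alike for Igkv3-7, while control library 3 was as high as they were and control libraries 1 and 2 had 0 and 3 such cells.

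Igkv1-135, the segment farthest but one from Igkc, was the most frequent segment of control library 3. It was dominant in 6.21%, 2.60% and 0% of cells in the food allergy libraries (0 of 420 allows up to 0.714%), against 2.83%, 3.42% and 21.6% in the control libraries. The 72 Igkv1-135 cells of control library 3 were more than those of all the other nonTB libraries together. The groups overlapped for Igkv3-7 and Igkv1-135, and also for the other much-used segments that follow. Igkv4-72 ranged from 1.11% to 5.27% of Igkv UMIs in food allergy and 2.42% to 5.06% in control, Igkv10-96 from 0.520% to 4.33% and 3.08% to 4.31%, Igkv1-110 from 1.47% to 5.27% and 2.62% to 3.42%, and Igkv3-2 from 3.34% to 4.96% and 2.45% to 4.70%.

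**Figure D2:**
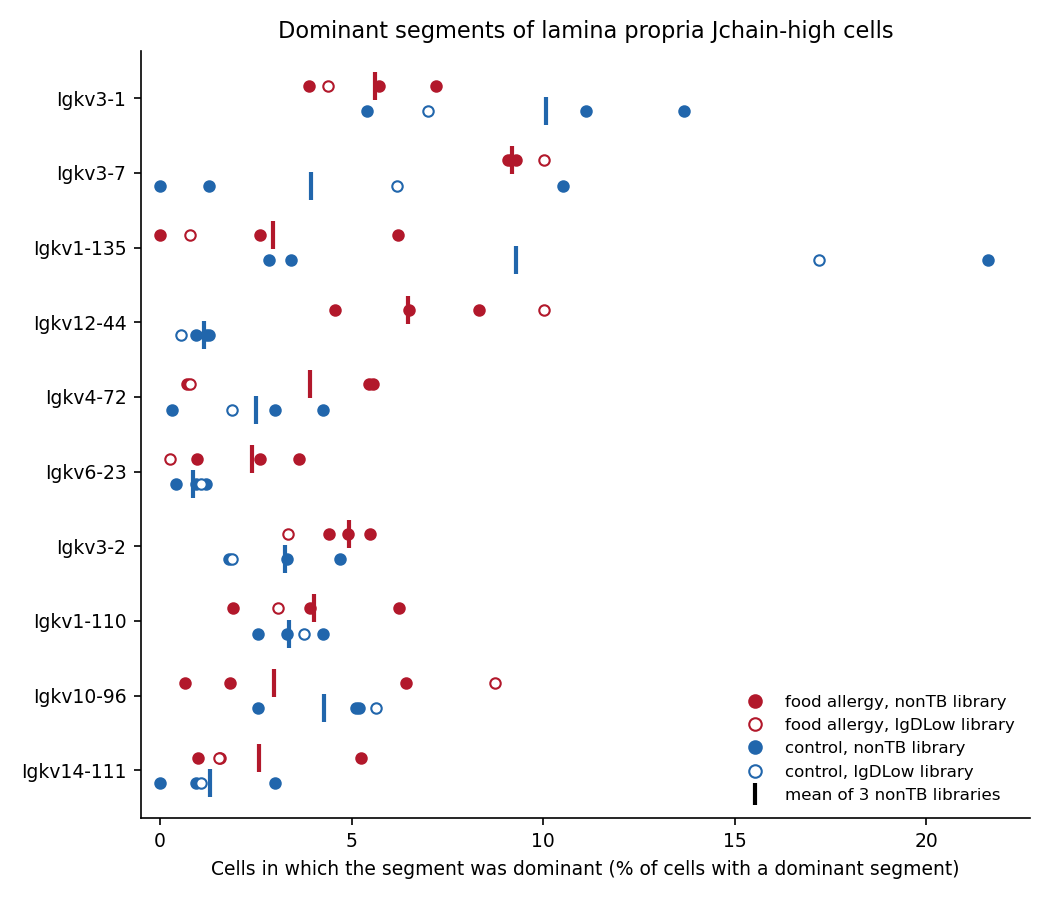
Share of lamina propria Jchain-high cells (percent of cells with a dominant segment, horizontal) in which each of the 10 segments with the highest mean usage was dominant. Filled points are nonTB libraries, open points the IgDLow libraries and ticks the mean of 3 nonTB libraries; Igkv12-44 lies at 4.58% to 8.33% in food allergy and 0.943% to 1.28% in control.

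Igkv6-23 was the leading segment of 1 library only, through very few cells. It took 18%, 2.37% and 0.733% of Igkv UMIs in the food allergy libraries, against 0.736%, 0.0770% and 1.00% in the control libraries. In food allergy library 1, 3 cells held 620 of its UMIs, or 94.1%. By dominant cells the same library had 8 of 306, close to the 14 of 385 in food allergy library 2, so the share by UMIs and the share by cells differ for this segment. Its log2 fold change of 3.34 ± 1.03 (SE) did not pass the test described next (edgeR adjusted p = 0.102).

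Tested over all genes on UMI counts summed per library (the quasi-likelihood test of edgeR, run date being a term in the model; Benjamini-Hochberg adjustment over 9290 genes, called at 0.05), 10 of the 67 Igkv segments with enough counts differed between food allergy and control in the nonTB lamina propria. Of these 7 were higher and 3 lower in food allergy, where 4% of all genes tested were called (2.93% higher and 1.08% lower). At an unadjusted p under 0.05 there were 29 Igkv segments, where 20.2% of all genes were. The median log2 fold change of the 67 segments was 0.26, against -0.01 over all genes tested. The remaining segments were too low in counts to be tested. DESeq2's Wald test called 2 of 67 segments, Igkv12-44 and Igkv3-7 (23 at an unadjusted p under 0.05), beside 228 of 9290 genes. Without the run date term edgeR called 4 of 57 segments and 54 of 8875 genes. Leaving out 1 food allergy library at a time changed the edgeR count to 6 of 64 (library 1 left out), 7 of 64 (library 2) and 32 of 72 (library 3). Of all genes, 41 of 9236, 222 of 9180 and 480 of 9703 were called in these fits. Leaving out 1 control library changed the edgeR count to 6 of 65 (library 1), 4 of 64 (library 2) and 32 of 71 (library 3). The genes called were then 152 of 9215, 51 of 9199 and 508 of 9625. Run date 7 has 1 nonTB library per condition, so without either library 3 only run date 6 compares the conditions. The counts of 32 are therefore not separate checks. Scaled to the Igkv total in place of all UMIs, the same test called 26 of 67 segments, 10 higher and 16 lower in food allergy. In that fit 5436 of all 9290 genes were called, so the rise was not particular to Igkv.

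Igkv12-44 was the clearest of them. Its UMIs numbered 179, 296 and 445 in the food allergy libraries, against 31, 59 and 73 in the control libraries. All food allergy libraries lay above all control libraries. The log2 fold change was 2.32 ± 0.21 (SE; edgeR adjusted p = 0.00086), and the call held under each of the 15 alternatives run, with log2 fold changes between 1.74 and 2.56 and adjusted p-values up to 0.0093. By cells, Igkv12-44 was dominant in 14, 25 and 35 cells of the food allergy libraries, against 2, 3 and 4 in the control libraries, which is 6.47 ± 1.88% against 1.14 ± 0.18% (SD, n = 3 each). Where at least 10 Igkv UMIs were asked of a cell, there were 4, 6 and 16 Igkv12-44 cells in food allergy and 0, 0 and 2 in control. In T cells of the same libraries, 7 of 69 Igkv UMIs were Igkv12-44 in food allergy and 1 of 46 in control.

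The segment most like Igkv12-44 is Igkv12-41, with 95.6% of bases identical and a shared run of 90 bases, and UMIs may not be parted fully between them. Igkv12-41 had 72, 126 and 153 UMIs in the food allergy libraries, against 37, 104 and 46 in the control libraries. Its groups overlapped, and its log2 fold change of 0.74 ± 0.35 (SE) did not pass the test (edgeR adjusted p = 0.267).

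Igkv4-61 and Igkv6-32 followed the same order in every library. Igkv4-61 had 73, 103 and 210 UMIs in the food allergy libraries, against 23, 17 and 14 in the control libraries (log2 fold change 2.59 ± 0.32 SE, edgeR adjusted p = 0.00477). It was dominant in 10, 13 and 16 food allergy cells, against 2 cells in each control library. Igkv6-32 had 46, 59 and 125 UMIs in food allergy, against 16, 10 and 20 in control (log2 fold change 2.12 ± 0.25 SE, edgeR adjusted p = 0.00346). For both segments the groups did not overlap, and both were called in the 14 alternatives that gave an adjusted p, the highest being 0.0353 for Igkv4-61 and 0.031 for Igkv6-32. DESeq2, the remaining one of 15, gave no adjusted p for either and so did not call them.

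Igkv8-24 was the clearest of the segments that were lower in food allergy. It had 15, 20 and 18 UMIs in the food allergy libraries, against 45, 67 and 61 in the control libraries, although the food allergy libraries held more Igkv UMIs in all (log2 fold change -1.85 ± 0.21 SE, edgeR adjusted p = 0.00346). Every food allergy library lay below every control library, and it was called in the 14 alternatives that gave an adjusted p, while DESeq2 gave none and did not call it. Igkv2-137 had 22, 34 and 12 UMIs in food allergy, against 62, 61 and 81 in control (log2 fold change -1.75 ± 0.29 SE, edgeR adjusted p = 0.0143), and it lost its call in 4 of 14 alternatives, with adjusted p-values up to 0.096. Igkv4-53 had only 3, 2 and 6 UMIs in food allergy, against 8, 8 and 22 in control (edgeR adjusted p = 0.0417), and its call was lost in 7 of 12 alternatives, with adjusted p-values up to 0.255. It passed the filter on low counts through 2 control libraries alone, the group where it was higher, so its call is no independent sign of a difference.

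**Figure D3:**
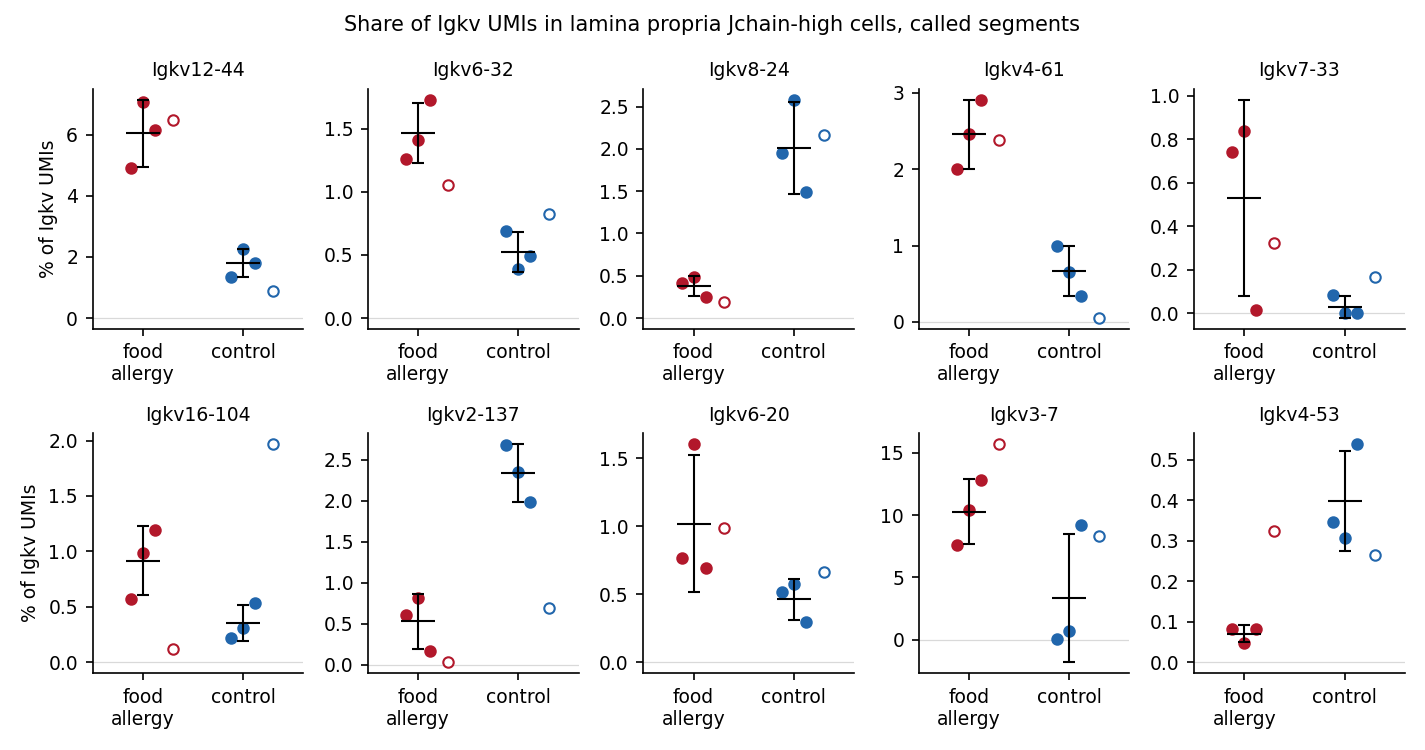
Share of Igkv UMIs (percent) in lamina propria Jchain-high cells for the 10 segments called between food allergy and control, 1 panel each. Filled points are the 3 nonTB libraries, bars their mean ± SD and open points the IgDLow library of each condition; Igkv12-44 averages 6.05% in food allergy and 1.80% in control, Igkv8-24 0.380% and 2.01%.

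Igkv16-104, Igkv6-20 and Igkv7-33 were also called higher in food allergy, and each lost its call in some alternatives. Igkv16-104 had 21, 41 and 86 UMIs in food allergy, against 5, 8 and 22 in control (log2 fold change 1.94, edgeR adjusted p = 0.0113). Igkv6-20 had 28, 67 and 50 UMIs in food allergy, against 12, 15 and 12 in control (log2 fold change 1.72, edgeR adjusted p = 0.0248). Igkv16-104 lost its call in 2 of 14 alternatives and Igkv6-20 in 4 of 14, with adjusted p-values up to 0.0946 and 0.0943. Igkv7-33 had 27 and 35 UMIs in food allergy libraries 1 and 2 but 1 in library 3, against 2, 0 and 0 in the control libraries, and 18 cells of the whole series had a UMI of it. It passed the filter on low counts through food allergy libraries 1 and 2 alone, so its place among the 10 called segments follows in part from that filter, and its values are given as a description.

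Igkv3-7, the most abundant segment, was called with a split between dates. It had 278, 433 and 929 UMIs in food allergy, against 1, 17 and 377 in control (log2 fold change 2.84 ± 0.63 SE, edgeR adjusted p = 0.0387). On run date 6 the libraries had 278 and 433 UMIs in food allergy against 1 and 17 in control, and on run date 7 the gap was 929 against 377. The call was lost in 8 of 15 alternatives, with adjusted p-values up to 0.327. Without food allergy library 3 or without control library 3 the log2 fold change was 5.12, and either omission leaves only run date 6 to compare the conditions. Igkv3-12, its closest relative, had 3, 33 and 220 UMIs in food allergy, against 72, 176 and 15 in control. It did not pass the test (edgeR adjusted p = 0.803), and UMIs may not be parted fully between the 2 segments.

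The heavy chain partner is a second feature that cells of a clone share. A heavy chain V segment (Ighv) was taken as the partner where it had at least 2 UMIs and led without a tie, which few cells allowed. In food allergy library 3, 7 of 9 Igkv12-44 cells with a partner had Ighv5-17, and in the IgDLow food allergy library, from the same run date, 8 of 15 had it. Among the other cells with a partner, Ighv5-17 was seen in 15 of 95 and 16 of 111 in these libraries. In food allergy libraries 1 and 2, from run date 6, Igkv12-44 had 2 cells with a partner each, with Ighv3-6 in both cells of library 1 and with different partners in library 2.

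Igkv3-7 was paired mainly with Ighv1-18 in the control libraries of run date 7, in 17 of 19 cells of nonTB library 3 and 9 of 13 of the IgDLow library. It was seen in 0 of the 61 and 0 of the 130 other cells with a partner in those libraries. In food allergy library 3, Igkv3-7 had 5 partners over 8 cells, with Ighv8-12 in 3, and in food allergy library 1 it had Ighv1-18 in 3 of 3 cells. Igkv1-135 was paired with Ighv1-63 in 9 of 15 cells of control library 3 and in 10 of 27 cells of the IgDLow control library. Igkv1-110 was paired with Ighv3-5 in 2 of 2 cells of control library 1, 4 of 5 of control library 3 and 6 of 7 of the IgDLow control library. In food allergy this held for 3 of 3 cells of library 3 only. Library 1 had 2 partners over 2 cells and library 2 had 4 over 4. The IgDLow food allergy library had Ighv5-17 in 3 of 6 cells. Few cells stand behind several of these counts.

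Cells in which the same light and heavy segment pair was seen more than once made up 23.7%, 8.51% and 35.6% of cells with both segments in the nonTB food allergy libraries (9 of 38, 4 of 47 and 37 of 104 cells), against 13.3%, 7.69% and 51.2% in the control libraries (4 of 30, 2 of 26 and 41 of 80). The IgDLow libraries had 42.9% in food allergy and 40.6% in control. The libraries of run date 7 were higher than those of run date 6 in both conditions, and they also had more cells with both segments.

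The libraries resembled each other by date and condition together. The share of dominant cells common to 2 lamina propria libraries (the sum over segments of the smaller of the 2 shares) was 76.4% for the nonTB and IgDLow control libraries of run date 7, 75.9% for food allergy libraries 1 and 2, 75.1% for the nonTB and IgDLow food allergy libraries of run date 7 and 72.3% for control libraries 1 and 2. The next pair had 61.9% and the lowest 43.7%. Every pair of 1 condition and 1 date therefore shared more than any other pair, across the sorts as well. Whether such pairs share animals cannot be told from the labels.

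The IgDLow libraries, 1 per condition and thus without a test, gave a further reading of the same segments. Igkv12-44 was dominant in 39 of 389 cells in food allergy (10.0%, exact 95% binomial interval 7.23% to 13.5%) and in 2 of 372 cells in control (0.538%, 0.0652% to 1.93%). These intervals cover counting error only. Igkv4-61 was dominant in 11 of 389 cells in food allergy and in 0 of 372 in control, which allows a share of up to 0.806%. Igkv1-135 was dominant in 3 cells of the food allergy library (0.771%, 0.159% to 2.24%) and in 64 of the control library (17.2%, 13.5% to 21.4%). Igkv6-32 had 68 UMIs in food allergy and 50 in control, and Igkv8-24 had 12 and 131. For Igkv16-104 the IgDLow libraries went against the nonTB call, with 8 UMIs in food allergy and 119 in control. Jchain-high cells of the IgDLow food allergy library were shallow, at a median of 2721 UMIs per cell against 14589 in control.

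Igkv9-119 is annotated as a pseudogene, and its UMIs lay in very few cells. Its germline V exon is shown with that of Igkv14-111, an intact segment found in the same cells; both lie on the plus strand, at chr6:68056513-68056810 and chr6:68256572-68256869. In Igkv9-119 the first capitals mark an in-frame stop codon beginning at base 78 of the exon as printed, and the last capitals in each mark the germline end of CDR3 as above.
Igkv9-119: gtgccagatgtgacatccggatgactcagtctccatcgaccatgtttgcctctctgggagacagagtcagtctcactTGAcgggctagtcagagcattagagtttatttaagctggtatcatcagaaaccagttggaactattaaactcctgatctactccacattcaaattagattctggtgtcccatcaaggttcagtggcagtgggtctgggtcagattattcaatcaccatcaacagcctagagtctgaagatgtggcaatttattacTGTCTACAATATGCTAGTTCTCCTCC
Igkv14-111: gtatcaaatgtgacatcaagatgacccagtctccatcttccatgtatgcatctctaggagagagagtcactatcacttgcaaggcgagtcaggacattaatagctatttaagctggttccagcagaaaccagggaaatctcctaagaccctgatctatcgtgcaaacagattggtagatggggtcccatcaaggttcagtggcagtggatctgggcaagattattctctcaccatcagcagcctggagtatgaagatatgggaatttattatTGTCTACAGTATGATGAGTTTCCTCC
The 2 exons are identical at 76.8% of bases with no shared run over 26 bases, and the genes lie 200 kb apart.

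Igkv9-119 was dominant in 8 cells, 4 in nonTB food allergy library 3 and 4 in the IgDLow food allergy library of the same run date. These 8 cells held 700 of its 718 UMIs. In the nonTB library the cells had 268, 218, 84 and 19 UMIs of Igkv9-119 beside 227, 191, 60 and 18 of Igkv14-111. In the IgDLow library they had 88, 10, 9 and 4 beside 67, 7, 6 and 3. The 2 segments thus ran together in every one of the 8 cells. That Igkv14-111 was the lower follows from choosing cells in which Igkv9-119 was dominant.

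The same 8 cells had little Igkc and much lambda constant RNA. Igkc numbered 183 to 407 UMIs in the 4 nonTB cells and 17 to 277 in the 4 IgDLow cells, against medians of 4725 and 5216 in the other Igha cells with a dominant segment of those libraries. Iglc2, a lambda constant gene, numbered 239 to 8741 UMIs in the 4 nonTB cells and 660 to 7153 in the 4 IgDLow cells. Igkv was 51.5% and 34.8% of the kappa UMIs of the Igkv9-119 cells. All 8 had Igha as their leading heavy chain constant gene, and the 1 with a heavy chain partner had Ighv9-3.

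**Figure D4:**
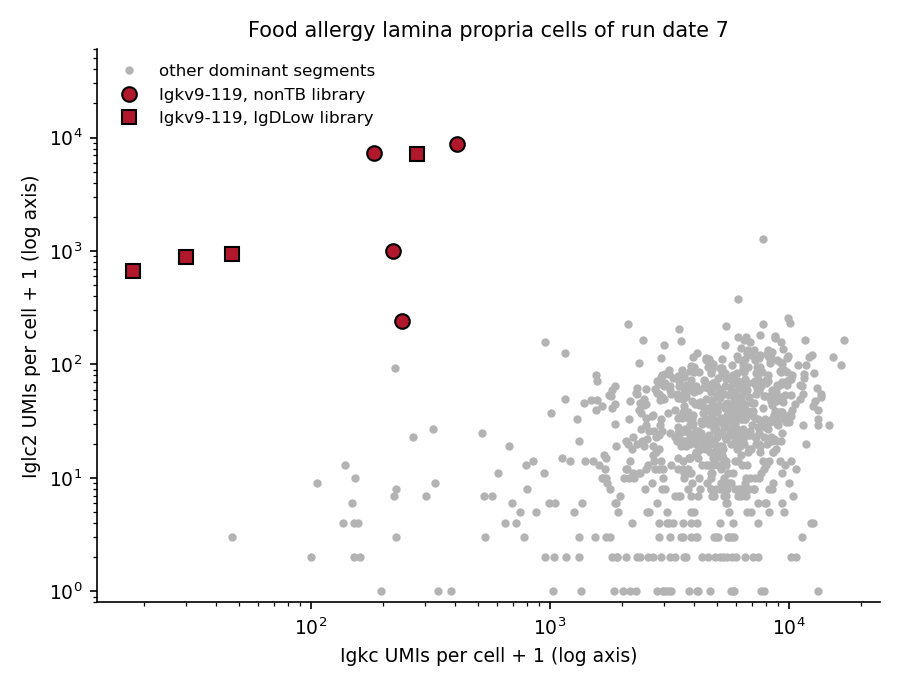
Igkc against Iglc2 UMIs per cell (each plus 1, log axes) in the 809 Jchain-high cells with a dominant segment of the 2 food allergy lamina propria libraries of run date 7. The 8 Igkv9-119 cells (red) lie at 17 to 407 Igkc UMIs and 239 to 8741 Iglc2 UMIs, where no other cell lies (grey).

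Across the whole series the 16 Igkv pseudogenes held 1.35% of Igkv UMIs, and Igkv9-119 held 718 of their 1131. Igkv3-11, the next, had 170, and Igkv12-40 had 59. In the nonTB lamina propria the pseudogenes took 0.301%, 0.503% and 8.96% of Igkv UMIs in the food allergy libraries, against 1.30%, 2.04% and 0.220% in the control libraries. The high value of food allergy library 3 is that of Igkv9-119, at 8.23%.

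A second segment, with at least 3 UMIs and at least 10% of the cell's Igkv UMIs, was present in 287 of the 2840 cells with a dominant segment (10.1%), over 183 different pairs. The most frequent pairs were Igkv3-1 with Igkv3-2 and Igkv3-2 with Igkv3-1 (9 cells each), then Igkv9-119 with Igkv14-111, Igkv3-7 with Igkv3-1 and Igkv3-1 with Igkv1-135 (8 cells each). Igkv3-1 and Igkv1-135 are identical at 64.8% of bases and share no run over 9 bases. Igkv1-135 had 106 of the 826 Igkv UMIs found in lamina propria T cells and Igkv3-1 had 1. For Igkv9-119 the second segment was seen in 8 of 8 dominant cells, whereas Igkv3-1 had Igkv3-2 in 9 of 184. On run date 4, 2 Peyer's patch cells of food allergy with Ighg3 as leading constant gene had Igkv1-135 with Igkv4-86, at 1035 and 935 UMIs over both cells.

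Along the locus the segments span 3.15 Mb of chromosome 6 (67555497 to 70704177 on mm10), with Igkc at 70726435 to 70726966, and 68 of the 112 lie on the minus strand and 44 on the plus strand. The 10 segments nearest to Igkc took 25.1 ± 1.89% of Igkv UMIs in the nonTB food allergy libraries and 19.9 ± 6.85% in the control libraries (SD, n = 3 each). The nearest 28 took 42.2 ± 6.98% and 37.5 ± 0.462%, and the farthest 28 took 25.6 ± 7.60% and 29.4 ± 7.30%. Use was spread over the whole locus in both conditions, and the groups overlapped for the farthest 28 segments.

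**Figure D5:**
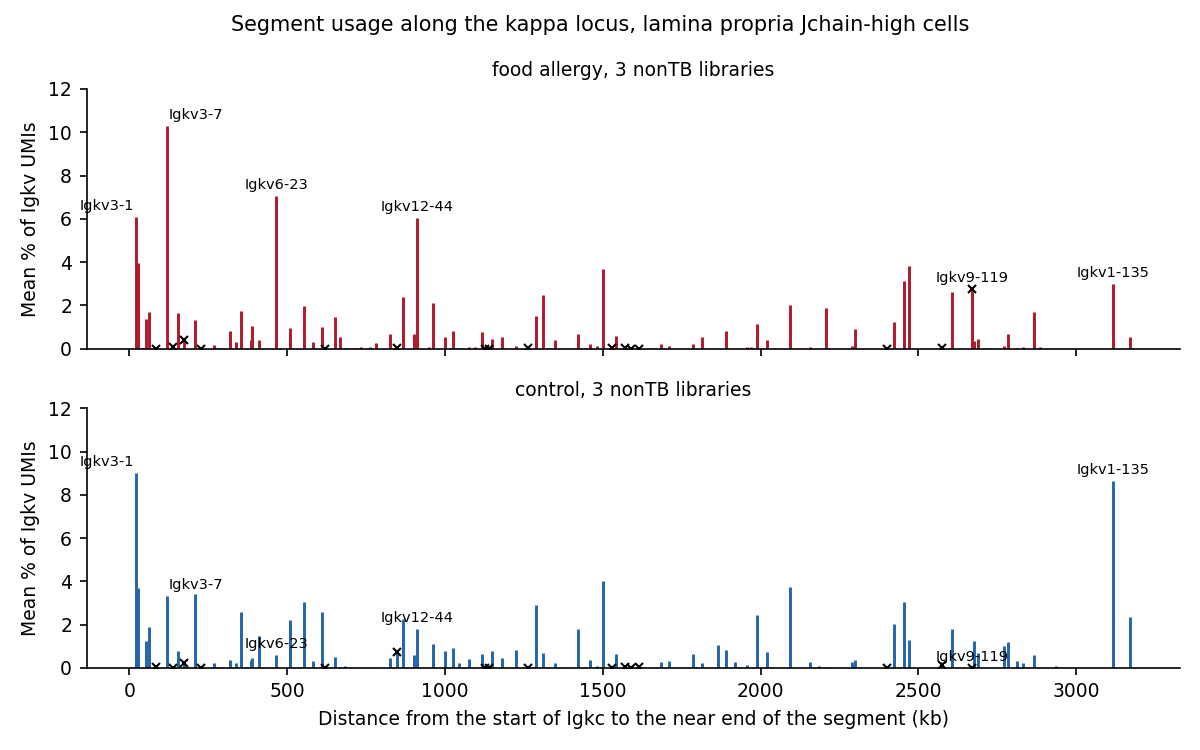
Mean share of Igkv UMIs (percent) of each segment in the 3 nonTB food allergy libraries (top) and the 3 control libraries (bottom), against its distance from Igkc in kb; crosses mark pseudogenes. Igkv3-7 averages 10.3% in food allergy and 3.31% in control, and Igkv1-135 3.00% and 8.62%.

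By family, Igkv3 took the largest share, with 26.8 ± 3.63% of Igkv UMIs in the nonTB food allergy libraries and 23.6 ± 4.93% in the control libraries. Igkv4, the family with most members (30 segments), took 13.6 ± 1.37% and 16.4 ± 3.47%. Family Igkv12, to which Igkv12-44 belongs, took 9.42%, 11.7% and 13.9% in food allergy, against 7.23%, 9.20% and 4.56% in control. Family Igkv8 took 5.56%, 6.59% and 2.09% in food allergy, against 15.6%, 10.9% and 3.94% in control. The conditions overlapped for family Igkv8 and did not for Igkv12. Family Igkv2 took 2.00%, 2.52% and 0.857% in food allergy, against 3.94%, 3.85% and 5.71% in control, again without overlap. In all, 5 of the 19 families did not overlap, with Igkv12, Igkv14 and Igkv16 higher and Igkv2 and Igkv13 lower in each food allergy library. Igkv14 took 2.79%, 4.94% and 9.57% in food allergy, against 1.99%, 1.81% and 1.13% in control. Its members differed by library: Igkv14-100 had 74, 150 and 0 UMIs in food allergy and Igkv14-111 had 24, 55 and 684. Of the 684 in library 3, the 4 Igkv9-119 cells held 227, 191, 60 and 18. These family values are descriptions, with no test and no chance level for the count of 5.

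The spread of the repertoire over segments was measured as the effective number of segments, the inverse Simpson index of dominant cells brought to 212 cells per library. It was 25.6, 24.5 and 23.3 in the nonTB food allergy libraries, against 24.7, 25.5 and 13 in the control libraries. Control library 3, with its many Igkv1-135 and Igkv3-7 cells, stood below the others, and its IgDLow counterpart had 17.5 where the IgDLow food allergy library had 22.7. The difference between conditions, 24.5 ± 1.19 against 21.1 ± 7.02 (SD, n = 3 each), was 3.39 (two-sided exact permutation test within run date p = 0.667, adjusted over 3 such tests 0.75), and it turned to -0.66 without control library 3. The smallest p this design allows is 0.167. Igkv took 0.196 ± 0.073% of kappa UMIs in food allergy and 0.144 ± 0.024% in control (exact permutation p = 0.167, adjusted 0.5), higher in food allergy on both run dates.

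Few Peyer's patch cells carried the comparison between conditions: Jchain-high cells numbered 11 to 123 per date in food allergy and 12 to 154 in control, and 1 cell could hold a large part of a sum. A single cell held 41.8% of the Igkv UMIs of run date 1 in food allergy. Igkv3-7 was the leading segment of the sums at 27.0% of run date 4 in food allergy and 18.1% and 25% of run dates 1 and 5 in control. The leading segments of the other sums were Igkv10-94 at 41.8%, Igkv3-4 at 27.7%, Igkv12-98 at 13.7% and Igkv3-1 at 10.4% in food allergy on dates 1, 2, 3 and 5, and Igkv14-111 at 16.9%, Igkv1-117 at 40% and Igkv3-4 at 18.3% in control on dates 2, 3 and 4.

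On sums per date and condition (5 against 5), edgeR's quasi-likelihood test called 4 of the 21 Igkv segments tested, 3 higher and 1 lower in food allergy, where 0.231% of all 7347 genes were called (0.109% higher and 0.122% lower). With a block by date and position in place of run date, on single libraries, it called 0 of 11 tested (3 at an unadjusted p under 0.05). At an unadjusted p under 0.05 there were 8 segments, where 4.14% of all genes were. DESeq2 called 0 segments, with 2 at an unadjusted p under 0.05. The same number, 0, remained in edgeR when libraries were scaled to their Igkv total (7 at an unadjusted p under 0.05). Without run date 4 edgeR called 3 of 13 segments, with Igkv8-19 (adjusted p = 1.8e-11) and Igkv3-1 (0.0241) among them, beside 17 of 7983 genes. With 1 sum left out, the count lay between 6 of 36 (without the control sum of run date 4) and 15 of 38 (without either sum of run date 2). In these fits 32 of 8716 genes, and 68 of 6944 or 6934, were called. Each date has 1 sum per condition, so leaving out either sum takes that date out of the comparison of conditions.

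The called segments rested on a few cells. Igkv8-30 had 0, 0, 1, 1179 and 26 UMIs on dates 1 to 5 in food allergy, against 1, 0, 0, 1 and 4 in control, and 1175 of those of date 4 were in 1 cell (edgeR adjusted p = 0.000188). Without the food allergy sum of date 4 its edgeR adjusted p was 1, and without the control sum of date 4 it was 0.952. Igkv4-59 had 0, 1, 0, 3 and 7 UMIs in food allergy, against 0, 2, 0, 293 and 10 in control (log2 fold change -4.31, edgeR adjusted p = 0.000229), and it had an adjusted p of 1 and 0.999 without those sums. In this segment 287 of the 293 UMIs of date 4 were in 1 cell.

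Igkv8-19 had 63, 40, 0, 1 and 0 UMIs on the same dates in food allergy, against 1, 0, 0, 0 and 3 in control (edgeR adjusted p = 5.62e-06), and an adjusted p of 0.978 without the food allergy sum of date 1 and 0.403 without the control sum of that date. Igkv8-30 and Igkv8-19 each passed the filter on low counts through 2 food allergy sums alone, the group where they were high, so their calls are no independent sign of a difference. Igkv3-1 had 0, 44, 2, 75 and 50 UMIs in food allergy, against 20, 3, 0, 4 and 7 in control (log2 fold change 2.69, edgeR adjusted p = 0.000807). It was higher in food allergy on 4 of 5 dates and passed with each sum left out in turn, but not in DESeq2 or under scaling to the Igkv total, where its adjusted p-values were 0.999 and 0.313, nor without the cells of at least 50 Igkv UMIs, where it was 1. In the nonTB lamina propria the log2 fold change of Igkv3-1 between the conditions was 0.00084 ± 0.13 (SE, edgeR adjusted p = 0.999). This is a difference per UMI of all genes. As a share of Igkv UMIs, Igkv3-1 was lower there in every food allergy library than in every control library.

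Igkv12-44 UMIs in Peyer's patches numbered 1, 28, 14, 0 and 10 on dates 1 to 5 in food allergy, against 63, 2, 0, 1 and 0 in control. The food allergy sums were higher on 3 of 5 dates, the highest value was that of a control sum, and the segment did not pass the test (log2 fold change 1.39 ± 0.63 SE, edgeR adjusted p = 0.999). A test of whether the effect of condition differed between the tissues called 0 of 54 Igkv segments and 0 of 9205 genes (edgeR; 11 Igkv segments at an unadjusted p under 0.05). The effective number of segments at 13 cells was 8.93 ± 1.06 in food allergy and 8.42 ± 2.55 in control over the 3 dates with enough cells (two-sided exact permutation test p = 0.75, adjusted 0.75, with 0.25 the smallest possible).

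Between tissues, 7 of 24 Igkv segments tested were higher in nonTB lamina propria than in Peyer's patches and none was lower, where 25.3% of all 8124 genes were called (12.4% higher and 12.9% lower; edgeR's quasi-likelihood test on sums with condition as a term). At an unadjusted p under 0.05 there were 10 segments, where 41.5% of all genes were. The tissues were run on different dates and sorted differently, so tissue, date and sort cannot be told apart. Genes of cell state moved in the same fit: Jchain was higher in the lamina propria (log2 fold change 2.32, edgeR adjusted p = 0.037), and the B cell factors Pax5 (-5.61, 0.00227) and Irf8 (-2.39, 0.00185) were lower. The comparison thus sets mostly plasma cells against sums that hold many Ms4a1-bearing B cells, and the part of this in the segment calls was not tested. The 7 were Igkv6-17 (log2 fold change 3.71, edgeR adjusted p = 0.00259), Igkv3-2 (2.94, 0.00494), Igkv12-44 (2.43, 0.015), Igkv4-61 (3.53, 0.0162), Igkv3-10 (3.39, 0.0198), Igkv2-109 (2.43, 0.0259) and Igkv12-41 (2.54, 0.044). These are differences per UMI of all genes. When libraries were scaled to their Igkv total instead, 0 segments were called and Igkv12-44 turned to -0.12 (edgeR adjusted p = 0.946). Without run date 4, 27 of 38 segments were called, all higher in the lamina propria, beside 3365 of 8744 genes in either direction. With 1 sum left out the count lay between 3 of 30 (without the food allergy lamina propria sum of run date 6) and 12 of 22 (without the control Peyer's patch sum of run date 4). In these fits 546 of 8064 and 2703 of 8277 genes were called. DESeq2 called 3 of 24 segments and 3109 of 8124 genes.

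Peyer's patch B cells with low Jchain (a UMI of Ms4a1 and of Cd79a, fewer than 20 of Jchain, no Cd3) gave a reading of the segments in cells that are not plasma cells. Without run date 4 they held 1322 Igkv UMIs over 98 segments. Igkv19-93 led with 9.30% of them, against 1.05% in Jchain-high cells of the same libraries. Igkv17-121 took 4.08% in B cells and 0.150% in Jchain-high cells, Igkv12-44 3.86% and 5.90%, and Igkv3-7 2.34% and 7.20%. The order of the leading segments thus differed between the cell sets, as a description of these sums.

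Among the other genes of light chain biology, Igkc and Jchain did not pass the test in the nonTB lamina propria (log2 fold changes 0.17 and -0.07, edgeR adjusted p = 0.595 and 0.816). Of 7 lambda genes tested, 2 were lower in food allergy, Iglc1 (log2 fold change -1.33, edgeR adjusted p = 0.0222) and Iglc3 (-1.97, 0.00346), and none was higher, where 1.08% of all genes tested were called lower and 2.93% higher. Jchain-high cells with more lambda than kappa constant UMIs were 0.826%, 2.23% and 1.6% of Jchain-high cells in the food allergy libraries, against 6.69%, 5.98% and 3.36% in the control libraries. Of 11 tested factors that bind kappa promoters and enhancers, 2 were lower, Pou2f1, which encodes the octamer-binding protein Oct-1 (-0.72, 0.0193), and Irf8 (-1.04, 0.0465), beside the same 1.08% of all genes. Of the 9 genes of V(D)J recombination and the surrogate light chain, 3 had enough counts to test and 0 passed (0 also at an unadjusted p under 0.05), while Rag1, Rag2 and Dntt were among those too low. The J segments Igkj1 to Igkj5 were not among the genes of the matrix.

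Of 8 heavy chain constant genes, Ighg1 was higher in food allergy (log2 fold change 2.56 ± 0.17 SE, edgeR adjusted p = 0.000187) and Ighd was lower (-4.06, 0.0378), beside 2.93% of all genes higher and 1.08% lower. The Ighd call rested on very few cells, as only 0.171% of nonTB Jchain-high cells had a UMI of it. Among cells with a dominant segment, Ighg1 was the leading constant gene in 1, 1 and 12 cells of the nonTB food allergy libraries and in 0 of each control library. Of those, 2 of the 12 in food allergy library 3 used Igkv12-44, as did 4 of the 16 in the IgDLow food allergy library. Igha led in 303 of 306, 379 of 385 and 403 of 420 cells of the food allergy libraries. Of the 74 nonTB food allergy cells dominated by Igkv12-44, Igha led in 14 of 14, 25 of 25 and 33 of 35.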

How the data were processed

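The deposited single-cell table holds whole-number UMI counts per gene and cell. Per the submitters' processing notes the named tools are Cell Ranger, RSEM, Bowtie2 and bcl2fastq and the build is mm10; which tool made which file, and the versions, are not given in the sources used here. Groups came from the labels. The members and gene lists were chosen with earlier results of these data known. Cells were used as deposited, with no further filter and no doublet caller. UMIs of cells with at least 20 Jchain UMIs were summed per library (lamina propria) or per run date and condition (Peyer's patches, sums of at least 10 cells) and tested with edgeR 4.0.16 in R 4.3.3 (quasi-likelihood test after edgeR's filter on low counts and TMM scaling), with DESeq2 1.42.0 as an alternative; the script was tested on simulated data. All genes entered each fit. Permutations were exact and within run date. Tables were made with Python 3.11.15, numpy 2.4.6, pandas 2.3.3 and scipy 1.17.1. Exact binomial intervals are at 95%, and the limit of a count of 0 is 3 counts; both cover counting error only. The segments named were the 10 with the highest mean share in each tissue, the leader of each library or sum, up to 10 called per comparison, the 5 most frequent second-segment pairs and the listed light chain genes; Igkv4-86, Igkv12-41, Igkv19-93, Igkv17-121, Igkv3-11 and Igkv12-40 were named after their values were seen where no rule names them. The bulk samples of the series were not used here, and 0 per-sample columns were left unused.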

Additional observations from a re-analysis of the deposited data

Results flagged for a closer look

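In Peyer's patches, 16 of the 24 groups of 5 sums examined held a sum far from the others by Dixon's test, where chance flags about 1 in 20 groups; many of the groups hold values of few cells or of 0, and segments were picked for being high somewhere. Run date 4 stood out in Igkv content. Its Igkv share of kappa UMIs was 15.4% in food allergy (other dates 0.0963% to 0.547%) and 12.9% in control (0.0750% to 0.298%). The T cells of the same date had a mean of 1.13 Igkv UMIs in food allergy (other dates 0.05 to 0.168) and 1.22 in control (0.0233 to 0.0920). Igkv4-72 took 20.7% and 12.3% of the Igkv UMIs of that date in food allergy and control.

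Single segments stood out on other dates. In food allergy these were Igkv10-94 at 41.8% and Igkv8-19 at 32.1% on run date 1, Igkv3-4 at 27.7% on run date 2 and Igkv1-117 at 2.92% on run date 5. In control they were Igkv12-44 at 16% and Igkv10-94 at 0.509% on run date 1, Igkv1-117 at 40% and Igkv6-17 at 33.3% on run date 3, Igkv3-4 at 18.3% on run date 4 and Igkv8-19 at 2.03% on run date 5. The control sum of run date 3 held 15 Igkv UMIs in all. The cause of these values was not tested.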

How the results depend on the processing

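Depth limits these results, with a median of 5 Igkv UMIs in a nonTB Jchain-high cell, and few libraries per group. Of the segments called between food allergy and control in the nonTB lamina propria, Igkv12-44 was called in each of the 15 alternatives, and Igkv4-61, Igkv6-32 and Igkv8-24 in 14, DESeq2 giving no adjusted p for these 3 and not calling them. The count of called segments was 10 of 67, beside 372 of 9290 genes. It was 2 of 67 with DESeq2 (228 of 9290 genes) and 26 of 67 when scaled to the Igkv total (5436 of 9290). With no filter on low counts it was 40 of 106 (979 of 15515), and without the run date term 4 of 57 (54 of 8875). With a library left out it was 4 to 32, while the genes called ran from 41 to 508. In Peyer's patches the count of 4 became 0 with DESeq2 (2 at an unadjusted p under 0.05) and 0 in edgeR scaled to the Igkv total (7). It was also 0 in edgeR without the run date term (1 of 2 segments tested). With no filter it was 15 of 90, beside 85 of 14931 genes, and at a Jchain minimum of 50 it was 7 of 35, beside 19 of 5714. With a sum left out it was 6 to 15, while the genes called ran from 32 to 88. Between nonTB lamina propria and Peyer's patches the count of 7 became 3 of 24 with DESeq2, beside 3109 of 8124 genes. It was 0 in edgeR scaled to the Igkv total (1 at an unadjusted p under 0.05) and 0 at a Jchain minimum of 50 (2). At a minimum of 10 it was 18 of 45, beside 3354 of 9707 genes, and with no filter 36 of 108, beside 2732 of 16499. With a sum left out it was 3 to 12, while the genes called ran from 516 to 3378. Chosen after seeing the data, it was 27 of 38 without run date 4, beside 3365 of 8744 genes. Without cells of at least 50 Igkv UMIs, also chosen so, it was 25 of 35, beside 2902 of 8720 genes. In that comparison Igkv12-44 turned to -0.12 on the log2 scale under scaling to the Igkv total. The cause of these shifts was not tested.

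The food allergy minus control difference in the effective number, 3.39 in the nonTB lamina propria, turned to -1.82 with only cells whose top segment held at least 80%, to -4.65 over UMIs in place of cells, and lay between -0.66 and 5.61 with a library left out. In Peyer's patches the difference of 0.51 turned to -0.19 and -0.22 at Jchain minimums of 10 and 50, to -3.23 with at least 10 Igkv UMIs per cell and, chosen after seeing the data, to -0.58 with shared barcodes kept once, and lay between -0.90 and 2.00 with a date left out. The Igkv share of kappa UMIs differed by 0.0523 percentage points, by -0.0516 as a mean over cells, and by 0.0102 to 0.0773 with a library left out.

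Replicate numbers were not taken to pair the nonTB libraries, since same-numbered libraries correlated at 0.031, 0.052 and 0.091. With the replicate number as a block edgeR called 10 of 67 segments there, 8 higher and 2 lower in food allergy, beside 152 of 9290 genes. In Peyer's patches a block by date and position gave 0 called of 11 tested in edgeR (3 at an unadjusted p under 0.05).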
